A study of Mus musculus with 12 samples.

Results

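The cytosolic ribosomal protein genes are the genes whose protein products, with ribosomal RNA, make up the small and large subunits of the ribosome of the cytosol. Members were taken from the deposited gene table by symbol: Rpl or Rps followed by a number with an optional letter or l-form, together with Rplp0 to Rplp2 and Rpsa. Symbols holding -ps and the Rps6k kinases were left out. Of 43629 gene rows, 86 were members: 33 of the small (40S) subunit, 50 of the large (60S) subunit and the 3 P stalk genes. The rule reads names only and no measured value, but it was set with earlier results of these data known.

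Poly(A) RNA of pulverized mouse forebrain was sequenced in 12 libraries. Newborn mice had been injected into the cerebral ventricles with an rAAV (a recombinant adeno-associated virus) that encodes a collagen domain construct, or with PBS, and their brains were taken at 3 months. The labels put 3 females and 3 males in the collagen domain group and 3 females and 3 males in the PBS group. Per the series title the collagen domain is that of C1qTNF3, a secreted protein. Mouse strain, virus serotype and transgene promoter are not given in the sources used here, and nothing says which cells carried the virus. By the labels the collagen domain mice received virus and the PBS mice none, so virus and transgene cannot be told apart. p-values measure the spread between these libraries.

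Library totals ran from 39272127 to 52323985 reads. C1qtnf3 had 2612 to 4966 reads in 4 libraries labelled collagen domain, but 8 and 23 reads in the other 2. It had 12 to 28 reads in 4 libraries labelled PBS, but 1071 and 2675 reads in the other 2. Xist and Ddx3y went against the labelled sex in 4 libraries. In all, 5 libraries went against a label, namely those labelled collagen domain female 1, collagen domain female 3, PBS female 2, collagen domain male 3 and PBS male 1. Groups below follow the labels, and results are also given for the other 7 libraries (3 collagen domain and 4 PBS). Among those 7, the only collagen domain library from a female is collagen domain female 2. A list of 14 cerebellum and hindbrain markers was high in 5 libraries and low in 7, although the tissue is labelled forebrain, and both groups held libraries of each kind. The split was at 0 of the mean log2 CPM of the markers, centred over the 12 libraries. The library labelled PBS male 1 lay between at -0.32 and was counted as low. The other low libraries had -2.66 to -1.96, and the high ones 2.49 to 3.28. Because these are bulk samples, fewer cells of a type and less RNA per cell cannot be told apart.

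Ribosomal proteins are needed in nearly equal numbers, because each ribosome holds a single copy of most of them. In mammals their mRNAs carry a 5′ terminal oligopyrimidine (TOP) tract, a run of pyrimidines at the start of transcription through which mTORC1 signalling controls their translation. Neurons keep some of these mRNAs in axons and dendrites. Most of the genes have many processed pseudogenes, which are copies of the spliced mRNA pasted elsewhere in the genome, and short reads are hard to place between a gene and such a copy.

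Most members were abundant, and levels between genes are compared here per length, as TPM computed from transcript length. Of the 86 members, 84 passed the filter on low counts and entered the tests, and 82 had at least 100 reads in every library. Over those 82 the median level was 386 TPM, with 404 TPM for the 40S genes and 377 TPM for the 60S genes. The highest levels were those of Rplp1, a protein of the stalk that recruits elongation factors, at 1631 ± 281 TPM (SD over the 12 libraries), and of the 40S genes Rps24 and Rps15, at 1103 and 971 TPM. Rps14 and Rps21, also of the 40S subunit, followed at 845 and 844 TPM.

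The lowest members were paralogs, which are second genes for a protein already encoded elsewhere, and 1 core gene. Rpl10l had no read in any library, and Rpl39l had 0.316 TPM. Both are known for expression in testis, and the summed level of 5 testis markers was 0.0472 to 0.225 CPM in collagen domain libraries and 0.0401 to 0.292 CPM in PBS libraries. CPM stands for counts per total reads, TMM-scaled for single genes and without that scaling for summed marker levels. Rpl3l, known from skeletal and heart muscle, had 0.425 TPM. Rpl24, a core 60S gene, had 1.19 TPM and only 245 reads over all 12 libraries, whereas 2 rows that copy its sequence held 18199 reads. Rps4l, which the annotation calls a transcribed processed pseudogene, had 15.7 TPM.

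Ribosomal protein reads made up 1.14 to 1.78% of a library in the collagen domain group, with a median of 1.48%, against 1.23 to 2.07% in the PBS group, with a median of 1.54%. The means were 1.47 ± 0.244% for collagen domain and 1.62 ± 0.369% for PBS (SD, n = 6 each). The groups overlapped widely. PBS female 1 and PBS male 3 had the highest shares, 2.07 and 2.05%, and collagen domain female 2 had the lowest, so that the extremes differed 1.82-fold.

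**Figure D1:**
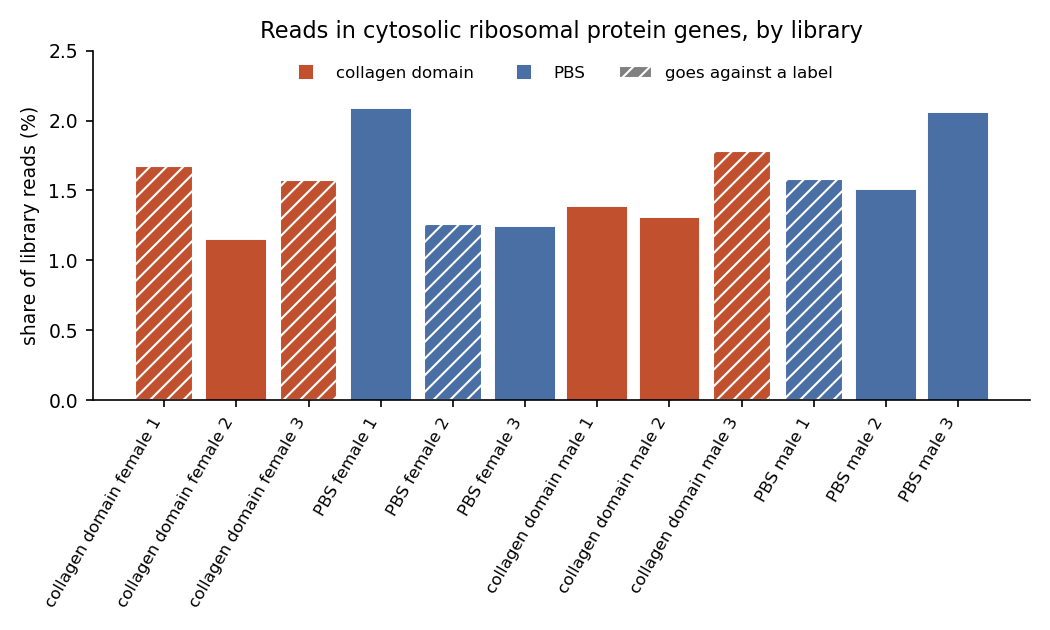
Share of each library's reads that fell in the 86 ribosomal protein genes (y axis, percent), for the 12 libraries by labelled group, with hatched bars for the 5 libraries that went against a label. PBS female 1 and PBS male 3 stood highest at 2.07 and 2.05%, and collagen domain female 2 lowest at 1.14%.

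Nearly all members moved together from library to library. The log2 CPM was set against each gene's own mean over the 12 libraries. In PBS male 3 all 82 members stood above their own mean, and in PBS female 1 and the library labelled collagen domain male 3 81 of 82 did. In collagen domain male 2 none did, and in collagen domain female 2, collagen domain male 1, PBS female 3 and the library labelled PBS female 2 1 of 82 did. The median member stood highest in PBS female 1, at 0.50 above its mean, and lowest in collagen domain female 2, at -0.41. A single component held 92.2% of the variance of the 82 genes. Both subunits took part: the median deviation in PBS female 1 was 0.54 for 40S genes and 0.49 for 60S genes, and in collagen domain female 2 it was -0.44 and -0.39.

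**Figure D2:**
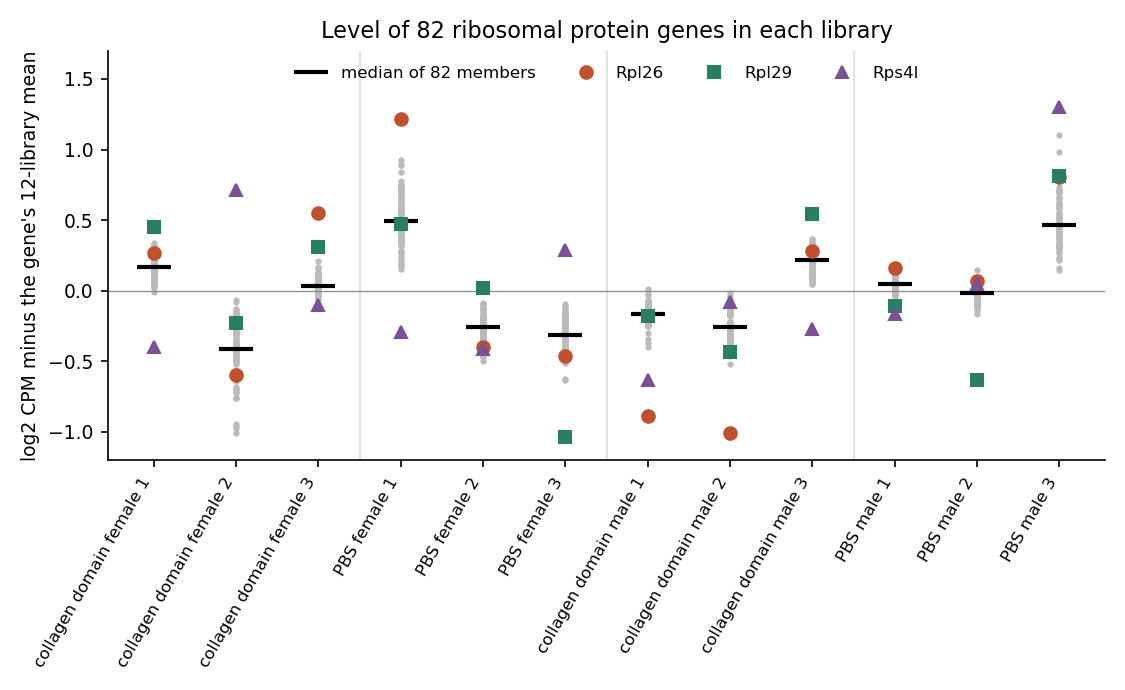
Each grey point is 1 of 82 ribosomal protein genes, as its log2 CPM in a library minus its mean over the 12 libraries (y axis), with the median of the 82 as a black bar and Rpl26, Rpl29 and Rps4l marked. The grey points shift together, with the median at 0.50 in PBS female 1 and -0.41 in collagen domain female 2, while the 3 marked genes leave the cloud in several libraries.

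Collagen domain against PBS, the comparison of the study, was fitted over both sexes with edgeR's quasi-likelihood test and Benjamini-Hochberg adjustment over all genes, at a threshold of 0.05. Of the 84 members tested, 0 were called, and among all 19145 genes 0 were called (0%). At an unadjusted p under 0.05 there were 0 members, against 354 genes in all (1.85%), and DESeq2 and limma-voom also called 0 genes. The members leaned one way, since 83 of 84 had a log2 fold change below 0, where 49.9% of all genes did. Their median was -0.16, against 0.00 for all genes. The direction is not 84 separate observations, because the members share the library-to-library shift described above. Within labelled groups the median member varied with an SD of 0.33 on the log2 scale, more than its difference between groups. In no member were all collagen domain values on one side of all PBS values (0.0679% of all genes).

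The lean rested on few libraries. Without PBS female 1 the median of the members was -0.03, with 69 of 84 below 0 (50.4% of all genes), and without PBS male 3 it was -0.07, with 78 of 85 below 0 (50.2%). Without collagen domain female 2 it was -0.10. In the 7 libraries that matched their labels it was -0.49, with all 85 members tested below 0 (50.8% of all genes), and 42 of 85 members had an unadjusted p under 0.05 where 5.79% of all genes did. None was called after adjustment, with a smallest adjusted p of 0.681, while 2 of 19661 genes were (0.0102%). Among those 7 libraries 2 members, Rpl26 and Rps15a, did not overlap between the groups (6.32% of all genes). Both are among the genes, described below, whose share of reads in near-identical copies fell into separate levels. That share was highest in collagen domain male 1 and male 2 for Rpl26 and in collagen domain male 1 for Rps15a. Its part in the non-overlap was not tested. The hindbrain markers moved with the contrast in the 7 libraries too, with 14 of 14 above 0 and a median log2 fold change of 0.79, and their part in the result was not tested. The median of the members was -0.36 in the 5 libraries with high hindbrain markers, -0.16 in the 7 with low ones, and -0.23 with the marker score as a covariate.

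**Figure D3:**
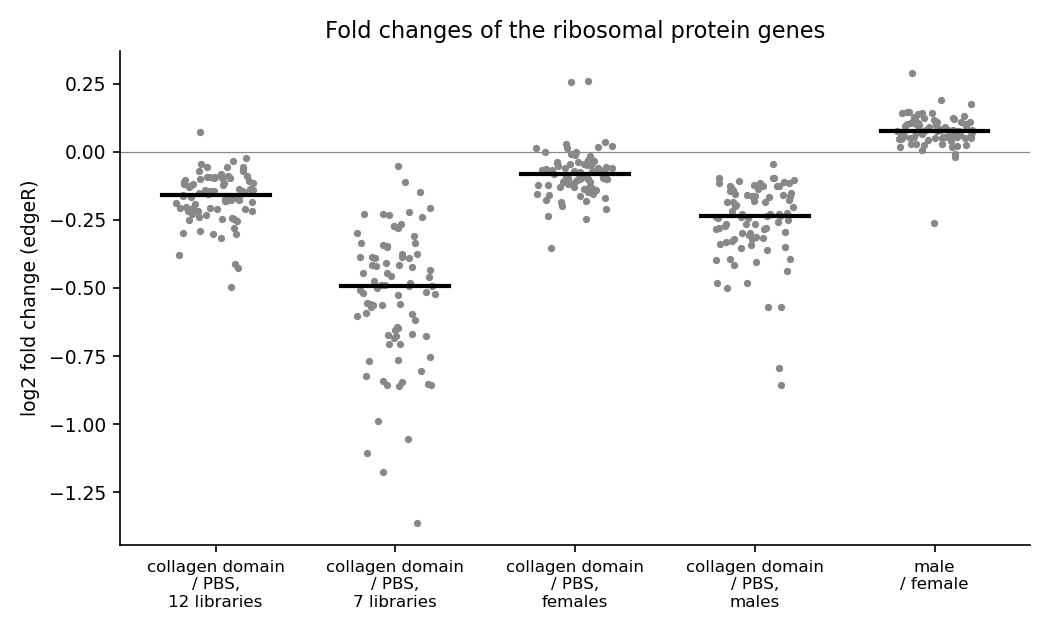
Log2 fold changes from edgeR (y axis) of the ribosomal protein genes, 1 point a gene and a bar at the median, for collagen domain over PBS in 12 libraries, in the 7 libraries that matched their labels, in females and in males, and for male over female. The medians were -0.16, -0.49, -0.08, -0.24 and 0.08.

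Within each sex no member was called. In females 76 of 84 members were below 0 (52.4% of all genes), with a median of -0.08, and 0 members and 0 genes were called (0%). That median changed sign without PBS female 1 (0.23) and without collagen domain female 2 (0.07). In males all 84 were below 0 (47.7% of all genes), with a median of -0.24, and 0 members were called (0%). Without PBS male 3 the median in males was -0.07. The interaction, males minus females, had a median of -0.16 over the members, with 82 of 84 below 0 (49.4% of all genes) and 0 members called (0%). It changed sign without PBS male 3, to 0.015 with 35 of 85 members below 0 (47.1% of all genes), and in the 7 libraries that matched their labels, to 0.12 with 15 of 85 below 0 (52.3%). The female side of those 7 rests on collagen domain female 2 alone, the library in which the median member was lowest. At an unadjusted p under 0.05 the females gave 280 genes (1.46%), the males 325 (1.7%) and the interaction 263 (1.37%), with 0 members in each. Of the members with the smallest p, Rpl21 in females had 321.8, 200.9 and 258.6 CPM in collagen domain libraries, against 462.5, 231.8 and 225.0 CPM in PBS libraries, with PBS female 1 above the rest and the groups overlapping. Its log2 fold change was -0.23 ± 0.27 (SE). Rps27l, Rpl3l, Rps26 and Rpl22l1 followed in females with -0.35, -0.25, -0.18 and -0.17. In males Rps4l, Rpl3l, Rpl26, Rpl36al and Rps3 had -0.86, -0.57, -0.80, -0.26 and -0.24. DESeq2 called 0, 3 and 1 genes in these comparisons and 0 members.

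Male against female, by label, also gave 0 members and 0 genes called (0%) with edgeR, and 8 genes with DESeq2. At an unadjusted p under 0.05 there were 377 genes (1.97%) and 0 members. The members leaned towards males, with 81 of 84 above 0 (49.4% of all genes) and a median of 0.08. Without the 4 libraries against the sex label the median was 0.03, with 20 of 85 members below 0 (50.2% of all genes). In the 7 libraries that matched their labels it was 0.15, with 3 of 85 below 0 (48.5%). That lean did not keep its direction: the median was 0.51 in the 5 libraries with high hindbrain markers and -0.23 in the 7 with low ones, and -0.01 without PBS male 3. With high markers 76 of 84 members had an unadjusted p under 0.05 (19.2% of all genes), all above 0, and with low markers 16 of 85 had (6.19%), where 83 of 85 were below 0. None was called by edgeR in either. Sexes in both sets follow the labels. The library labelled PBS female 2, with high markers, went against its sex label. So did those labelled collagen domain female 1, collagen domain male 3 and PBS male 1, with low markers. Of the 5 members with the smallest p, Rps3, a 40S protein at the mRNA entry site, had 242 to 386 CPM in males, with a median of 273, against 230 to 330 CPM in females, with a median of 252. Its log2 fold change was 0.11 ± 0.12 (SE). The others, Rpl3l, Rpl22l1, Rpl10 and Rplp1, had 0.29, 0.17, 0.12 and 0.13, and male and female values overlapped in each.

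Of the 10 members with the smallest p between collagen domain and PBS, 5 were minor paralogs. Rpl3l had 0.196 to 0.349 CPM in collagen domain libraries, with a median of 0.301, against 0.25 to 0.497 CPM in PBS libraries, with a median of 0.364. Its log2 fold change was -0.41 ± 0.21 (SE, unadjusted p = 0.0732 from edgeR), and the groups overlapped. It rested on 8 to 21 reads a library, and the summed level of 5 skeletal muscle markers was 6.02 to 7.91 CPM in collagen domain libraries and 5.93 to 7.45 CPM in PBS libraries.

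Rpl22l1, the paralog of the 60S gene Rpl22, had 28.9 to 51.5 CPM in collagen domain libraries, with a median of 40.4, against 37.3 to 67.0 CPM in PBS libraries, with a median of 46.6. Its log2 fold change was -0.25 ± 0.16. Rps27l, a p53-induced paralog of the 40S gene Rps27, had 7.02 to 16.7 CPM in collagen domain libraries, with a median of 12.3, against 10.1 to 26.6 CPM in PBS libraries, with a median of 13.5, and a log2 fold change of -0.43 ± 0.29. Both genes were highest in PBS male 3 and lowest in collagen domain female 2, the libraries that were extreme for the whole set. Of the remaining members of the first 10 by p, Rpl26, Rpl36al, Rpl5, Rpl7l1, Rpl32 and Rpl39 had log2 fold changes from -0.14 to -0.50.

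Rpl5 and Rpl11 form, with 5S ribosomal RNA, the particle that binds the p53 inhibitor Mdm2 when ribosome assembly is disturbed. Rpl5 had 204 to 275 CPM in collagen domain libraries and 213 to 329 CPM in PBS libraries, and a log2 fold change of -0.14 ± 0.12. Rpl11 had 151 to 244 CPM in collagen domain libraries and 165 to 323 CPM in PBS libraries, and -0.18 ± 0.18. Without PBS female 1 Rpl5 had -0.052 and Rpl11 -0.017. Neither was called. Of 15 p53 target genes 0 were called, 9 were below 0, and their median was -0.01.

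Of the stalk genes, Rplp0, the anchor of the stalk, had 159 to 188 CPM in collagen domain libraries, with a median of 170, against 161 to 220 CPM in PBS libraries, with a median of 173. Rplp1 had 339 to 577 CPM in collagen domain libraries and 348 to 645 CPM in PBS libraries, and Rplp2 had 82.2 to 114 CPM in collagen domain libraries and 82.8 to 143 CPM in PBS libraries. Rplp0, Rplp1 and Rplp2 had log2 fold changes of -0.06, -0.09 and -0.10, each smaller than its SE. Rpsa, the 40S protein also known as the laminin receptor precursor, had 332 to 405 CPM in collagen domain libraries and 331 to 458 CPM in PBS libraries. Rps27a, which is made as a fusion with ubiquitin, had 172 to 280 CPM in collagen domain libraries and 189 to 339 CPM in PBS libraries. Their log2 fold changes were -0.06 and -0.14. All of these ranges overlapped between the groups.

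The share of a paralog within its pair does not depend on how libraries are scaled. Of 8 pairs, the 5 whose minor gene had at least 10 reads in each library were tested by exact permutation of the treatment labels inside each sex (two-sided), with p adjusted over the 5. Rpl22l1 held 25.3 to 31.9% of the reads of Rpl22l1 and Rpl22 in collagen domain libraries, with a median of 28.9%, against 29.4 to 31.9% in PBS libraries, with a median of 30.6%. The means were 28.7 ± 2.14% for collagen domain and 30.6 ± 0.807% for PBS (SD, n = 6 each). On the log2 ratio scale the difference was -0.14 (exact permutation p = 0.04, adjusted 0.2), so it did not pass the correction. Without the library labelled collagen domain male 3 it was -0.17, with an adjusted exact permutation p of 0.025, and in the other 11 leave-one-out sets it did not pass.

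Rps27l held 6.35 to 9.01% of the reads of its pair in collagen domain libraries, with a median of 8.22%, against 8.41 to 13.2% in PBS libraries, with a median of 8.56%. The highest value was that of PBS male 3. The difference of -0.27 on the log2 ratio scale had an adjusted exact permutation p of 0.325. It was -0.15 without PBS male 3 and did not pass. In the 7 libraries that matched their labels it was -0.53, and the difference for Rpl22l1/Rpl22 was -0.28. The 18 label arrangements possible in those 7 allow no p under the threshold, even before adjustment. No pair could have passed there, so that set cannot decide whether the shares differed. For Rpl36al/Rpl36a, Rps4l/Rps4x and Rpl7l1/Rpl7 the differences over all libraries were -0.01, -0.10 and -0.02, all with an adjusted exact permutation p of 0.91.

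For many members the reads were divided between the gene and near-identical copies elsewhere in the genome. A copy is here a row other than a member whose annotated transcript of 100 to 2500 bases has at least 50% of its 25-base words in a member's transcripts. By that rule, chosen after the values were seen, 299 rows copied 71 members, and only 118 of them carry -ps in their symbol. The copies held a median of 18.7% of the reads of a member and its copies, and at least 50% for 11 members. The table does not say how reads that match several places were counted. For Rpl21, copies on chromosomes 2, 9 and 15 had counts that differed by at most 1.88% in any library, so a read may stand in more than 1 row. Such a read would be added more than once. The percentages in copies and the values with copies added may therefore not be shares of distinct reads.

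The sequences below show how little separates a gene from its copy, since a 75-base read that misses the differing base matches both. Each is a 45-base coding stretch of a member beside the same stretch of an abundant copy, from GENCODE M21 transcripts on GRCm38, with the differing bases in capitals. Rpl26 lies at chr11:68903275-68903319 (plus strand) and Gm15772 at chr5:3236695-3236739 (plus strand), and over 438 aligned bases 436 are identical. Rpl29 lies at chr9:106430320-106430364 (plus) and Gm13841 at chr5:115802066-115802110 (minus), with 480 of 483 bases identical. Rpl21 lies at chr5:146835635-146835679 (plus) and Gm13370 at chr2:24986297-24986341 (plus), with 481 of 483 identical. Rps2 lies at chr17:24721019-24721063 (plus) and Rps2-ps13 at chrX:52899013-52899057 (plus), with 875 of 882 identical.
Rpl26: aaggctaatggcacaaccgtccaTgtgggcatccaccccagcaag
Gm15772: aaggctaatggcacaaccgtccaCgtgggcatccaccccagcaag
Rpl29: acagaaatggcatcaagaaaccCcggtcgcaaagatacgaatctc
Gm13841: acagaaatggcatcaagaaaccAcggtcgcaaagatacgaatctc
Rpl21: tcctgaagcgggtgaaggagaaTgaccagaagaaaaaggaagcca
Gm13370: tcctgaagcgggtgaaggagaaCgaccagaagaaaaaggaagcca
Rps2: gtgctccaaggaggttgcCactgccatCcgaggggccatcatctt
Rps2-ps13: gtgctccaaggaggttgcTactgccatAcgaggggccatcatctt

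In 7 members the share of reads in the copies fell into 3 separate levels over the 12 libraries. Levels were split, after the values were seen, wherever neighbouring libraries differed by more than 5 percentage points. For Rpl26, a 60S protein near the peptide exit tunnel, 2 libraries had 24.3 and 25.3% of the reads in copies, 8 had 47.4 to 48.1%, and 2 had 68.5 and 68.6%. The low pair was PBS female 1 and the library labelled collagen domain female 3, and the high pair was collagen domain male 1 and collagen domain male 2. For Rpl29, a 60S protein that mice can live without, 6 libraries had 41.6 to 44.2%, 4 had 68.9 to 69.9%, and PBS female 3 and PBS male 2 had 83.4 and 83.7%.

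The other genes with 3 levels were Rpl21, Rps2, Rps26, Rpl34 and Rps15a. Rpl21 had 39.6 to 40.8% in 2 libraries, 58.8 to 60.4% in 6 and 71.3 to 73.0% in 4. Rps2 had 46.1 to 47.7% in 3 libraries, 68.8 to 70.2% in 8 and 77.8% in PBS female 3. Rps26 had 7.25 to 9.18% in 4 libraries, 20.8 to 23.6% in 7 and 32.8% in PBS male 3.

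Rpl34 had 8.18% in the library labelled collagen domain female 1, 19.8 to 20.9% in 6 libraries and 29.6 to 31.6% in 5. Rps15a had 5.93 to 9.08% in 6 libraries, 16.4 to 21.0% in 5 and 27.0% in collagen domain male 1. In these 7 genes every level that held 3 or more libraries held both collagen domain and PBS libraries, and the libraries at the highest level were not the same from gene to gene. Of the levels with 2 libraries, the highest of Rpl26 was all collagen domain and the highest of Rpl29 all PBS. The lowest of Rpl26 and of Rpl21 held both. By labelled sex, the lowest Rps2 level was all male and the lowest Rps26 level all female, although each held libraries against the sex label. Every other level of 3 or more libraries held both labelled sexes. Rpl3 had 2 levels, 29.6 to 30.3% in 3 libraries and 35.7 to 37.7% in the other 9. The 3 were those labelled collagen domain female 1, collagen domain female 3 and collagen domain male 3, which all went against a label. The 3 collagen domain libraries that matched their labels stood at the higher level. Over the 57 remaining members with enough copy reads the range between libraries was 0.263 to 8.26 percentage points, with a median of 1.86.

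**Figure D4:**
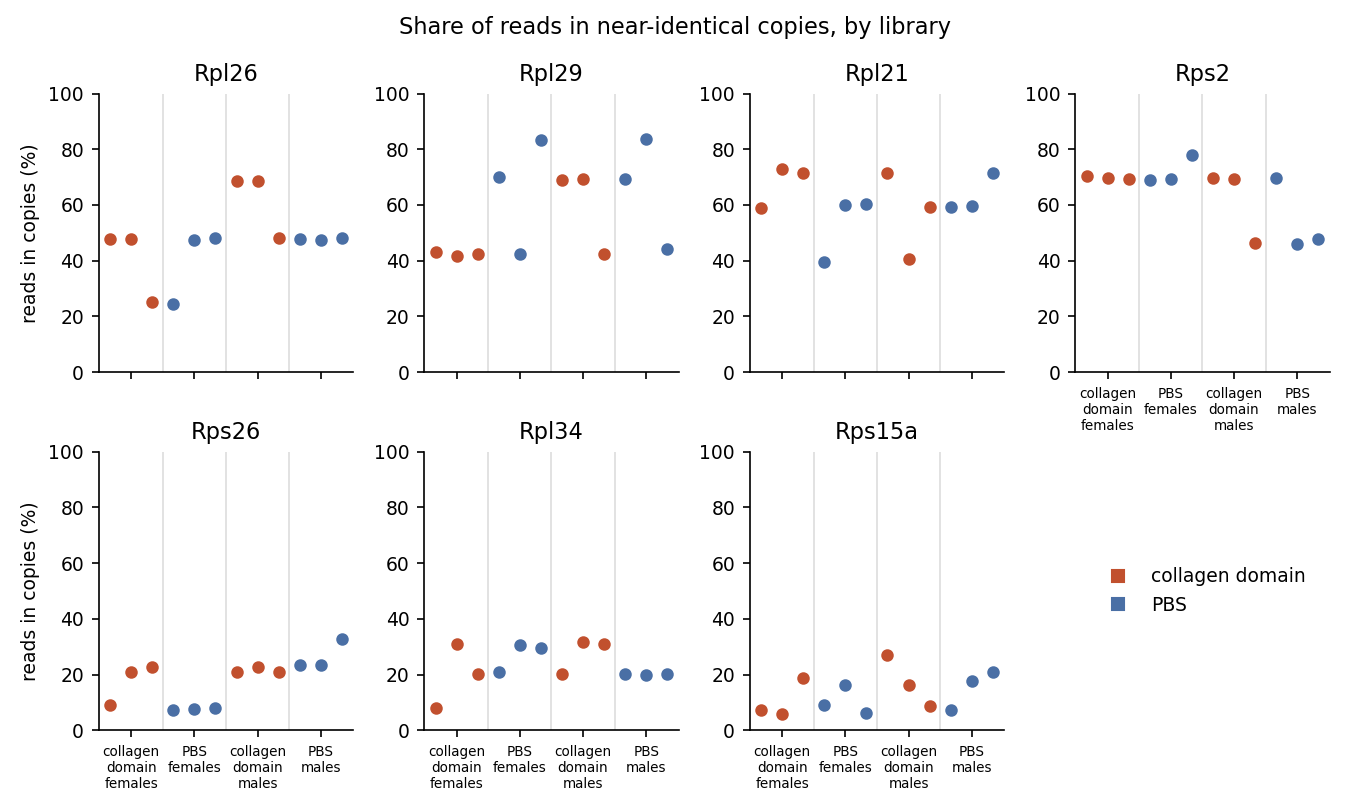
Percent of the reads of a gene and its copies that lay in the copies (y axis), for the 7 ribosomal protein genes whose values formed 3 levels, with 1 point a library in the order of replicate numbers within each labelled group. Rpl26 had 24.3 and 25.3% in 2 libraries, 47.4 to 48.1% in 8 and 68.5 and 68.6% in 2.

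Single-gene values are given here alone and with the reads of the copies added, and the part of the splits in them was not tested. Rpl26 had 101 to 297 CPM in collagen domain libraries, with a median of 189, against 148 to 473 CPM in PBS libraries, with a median of 221, and a log2 fold change of -0.50 ± 0.36, the most negative of the first 10 members by p. With the reads of its copies added, its log2 fold change was -0.26 ± 0.23. Its departure from the median member, as an SD over libraries on the log2 scale, was 0.44 alone and 0.15 with the copies. For Rpl29, the only member above 0, the log2 fold change was 0.07 ± 0.30 alone and -0.51 ± 0.20 with the copies, with the departure at 0.36 both ways. For Rps2 and Rpl21 the departure was larger with the copies, 0.51 and 0.28, than alone, 0.12 and 0.13.

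The values of the whole set were close with and without the copies. With the copies added for all members the median log2 fold change was -0.16, 84 of 84 were below 0 (49.9% of all genes), 0 were called, and the ribosomal share of reads was 1.61 to 2.43% in collagen domain libraries and 1.75 to 2.87% in PBS libraries. In the 7 libraries the median with the copies was -0.49. Any read that stands in several rows is added more than once in these sums, so the share with copies may be too high.

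Rps4l was the member that departed most from the others, with an SD of 0.59 relative to the median member. It had 4.62 to 11.7 CPM in collagen domain libraries, with a median of 6.31, against 5.39 to 17.7 CPM in PBS libraries, with a median of 6.91. PBS male 3 was highest and collagen domain female 2 next, although the median member was at its lowest in that library. In females it had 5.44, 11.7 and 6.68 CPM in collagen domain libraries, against 5.84, 5.39 and 8.73 CPM in PBS libraries. In males it had 4.62, 6.78 and 5.94 CPM in collagen domain libraries, against 6.40, 7.41 and 17.7 CPM in PBS libraries. The groups overlapped in both sexes. Its log2 fold change was 0.26 ± 0.39 in females and -0.86 ± 0.40 in males, and the interaction, -1.12 ± 0.56, had an unadjusted p of 0.0721 and was not called by edgeR. Without PBS male 3 it was -0.26 in males and the interaction was -0.51.

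For each of the 82 members, the level relative to the median member was correlated over the 12 libraries with every gene of at least 1 CPM, as a description. Of the 10 genes most alike to Rpl26, 7 lay on chromosome 11, its own, which holds 7.80% of the 15483 genes searched. Mrpl55, a mitochondrial ribosomal protein, led with r = 0.95, and Rabep1 and Alkbh5 ran opposite with r = -0.94 each. For Rps15a 7 of 10 lay on its own chromosome 7 (7.18% of genes searched), led by Trim12a with r = 0.91.

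For Rpl29 4 of 10 lay on its own chromosome 9 (5.68%), including Poc1a and Abhd14a, each with 1 protein-coding gene between it and Rpl29, with r = 0.95 and 0.91. Gm17669, one of the copies of Rpl29, had r = 0.96. For the other 79 members the count on the own chromosome had a median of 0 and reached 4. These 3 genes were singled out after the values were seen, and the correlations share the 12 libraries and their depth.

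Members differed in how far they moved between libraries, given here as the SD of log2 CPM over the 12 libraries. Rpl26 moved most, at 0.68, followed by Rpl35, another protein near the exit tunnel, at 0.62, and Rps14, a protein of the 40S platform, at 0.57. Rpl35 had 14.5 to 37.5 CPM in collagen domain libraries and 18.8 to 62.5 CPM in PBS libraries, a 4.32-fold range. The least moved were Rpl8, of the peptidyl transferase centre, at 0.10, Rpl4, of the tunnel wall, at 0.11, and Rps23, of the decoding centre, at 0.12. Rpl8 had a 1.22-fold range, and the median member had a 1.94-fold range. The widest and the narrowest members included genes of both subunits.

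The spread was smaller for the longest transcripts. The median SD was 0.33 for the 12 members with transcripts under 500 bases, 0.32 for the 47 of 500 to under 1000 bases and 0.26 for the 23 of 1000 bases or more. Across the 82 genes, which are not independent replicates, Spearman's rho with length was -0.39 and Pearson's r with log2 length -0.33. With mean CPM rho was -0.11, and with GC content it was 0.01 over 73 members.

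**Figure D5:**
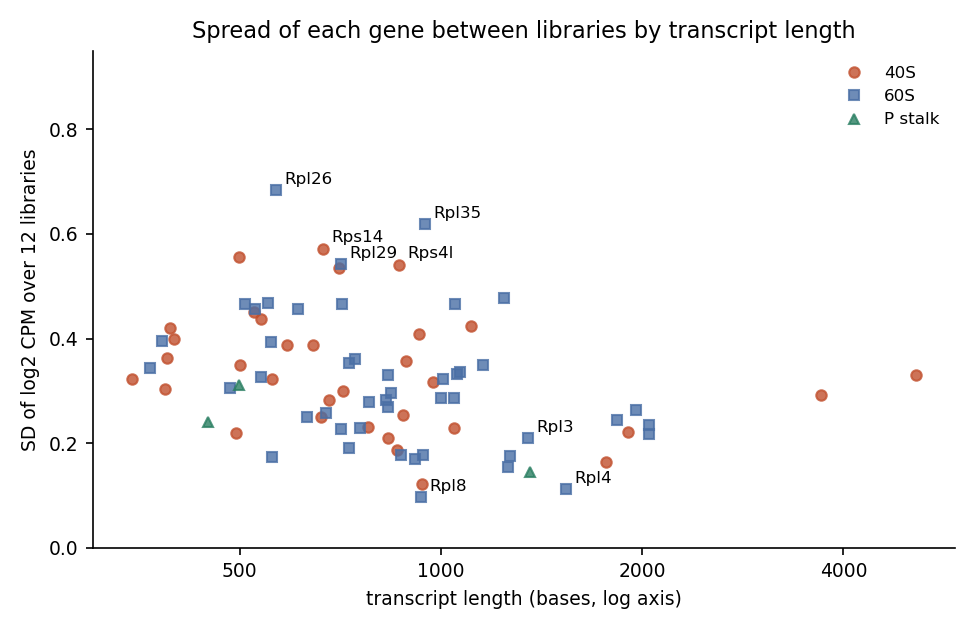
SD of log2 CPM over the 12 libraries (y axis) against transcript length in bases (x axis, log scale) for 82 ribosomal protein genes, with colour and shape by subunit. Rpl26 at 0.68 and Rpl35 at 0.62 lie highest, and Rpl8 at 0.10 and Rpl4 at 0.11 lowest.

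Promoters from RefSeq (GRCm38.p6) were found for 63 members, with 75 starts in all. A window from 40 bases before to 20 bases after the start was searched on the sense strand for CTTTC or CTTTT, short pyrimidine runs of the kind in which TOP mRNAs begin. It was found in 28 of 75 member promoters (37.3%), against 14.2% of 32851 promoters. In the full window of 300 bases on both strands, CCGGAAG, an ETS-type motif, was in 34.7% of member promoters against 8.86% of all, and AAGATGGC, a YY1-type motif, in 10.7% against 2.75%. TATAAA in the short window was in 2.67% of member promoters and 2.65% of all.

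The short windows of the 4 members that moved most and the 4 that moved least are shown, among members with 1 listed start, with the CTTTC and CTTTT matches in capitals. Those that moved most are Rpl26 (chr11:68901526-68901585, plus strand), Rpl35 (chr2:39005112-39005171, minus), Rpl12 (chr2:32961672-32961731, plus) and Rpl41 (chr10:128549149-128549208, minus). Those that moved least are Rpl4 (chr9:64173347-64173406, plus), Rps23 (chr13:90923082-90923141, plus), Rplp0 (chr5:115559427-115559486, plus) and Rpsa (chr9:120127726-120127785, plus).
Rpl26: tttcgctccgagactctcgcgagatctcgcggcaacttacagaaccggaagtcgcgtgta
Rpl35: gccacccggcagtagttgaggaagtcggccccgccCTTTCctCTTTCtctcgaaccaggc
Rpl12: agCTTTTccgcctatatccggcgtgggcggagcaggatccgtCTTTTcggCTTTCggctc
Rpl41: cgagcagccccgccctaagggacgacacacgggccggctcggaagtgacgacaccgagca
Rpl4: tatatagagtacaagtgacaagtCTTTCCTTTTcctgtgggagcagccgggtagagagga
Rps23: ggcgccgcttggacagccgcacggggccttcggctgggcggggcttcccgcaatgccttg
Rplp0: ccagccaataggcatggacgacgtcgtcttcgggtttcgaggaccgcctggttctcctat
Rpsa: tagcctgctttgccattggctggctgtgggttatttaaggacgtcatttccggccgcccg
Matches stand in both sets. The median SD was 0.33 for the 26 members with a match and 0.32 for the 33 without. A match could lie anywhere in the window, and only CTTTC and CTTTT were searched. Members without a match may therefore still carry a TOP tract, so the split cannot bear on TOP tracts and spread.

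Genes that build or regulate ribosomes had medians nearer 0 than the ribosomal protein genes, a difference that was not tested, and none of these lists had a gene called by edgeR. Of 26 ribosome assembly factors 19 were below 0 with a median log2 fold change of -0.02, of 12 RNA polymerase I genes 8 were with -0.02, and of 15 regulators of ribosomal protein synthesis 7 were with 0.01. Among 22 elongation factors and other TOP mRNAs 17 were below 0, with a median of -0.05. Fau, Rack1 and Rps3a1, ribosomal proteins named otherwise, had -0.12, -0.10 and -0.27.

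Other lists of mostly short mRNAs had fold changes in the same direction. Of 30 nuclear genes of oxidative phosphorylation 30 were below 0 (49.9% of all genes), with a median of -0.17, and their median deviation was 0.50 in PBS female 1, 0.45 in PBS male 3 and -0.38 in collagen domain female 2. Atp5e, a subunit of ATP synthase, had a log2 fold change of -0.40 ± 0.29. Of 76 mitochondrial ribosomal proteins 73 were below 0, with a median of -0.09. Of 1261 other protein-coding genes with transcripts under 1000 bases 845 were below 0, with a median of -0.07. In the 7 libraries these lists had medians of -0.48, -0.26 and -0.21. The reads of mitochondrially encoded genes were 7.37 to 8.83% of a library in the collagen domain group and 7.57 to 9.86% in the PBS group, highest in PBS female 1 and PBS male 3. Marker lists of neurons, astrocytes, oligodendrocytes and microglia, all present in every library, had medians of -0.02, -0.01, -0.02 and -0.04 for collagen domain over PBS, and 4 endothelial markers had 0.11. Of those 4, Cldn5 had 0.23 (unadjusted p = 0.00674 from edgeR) and was not called. All 6 choroid plexus markers were above 0, with a median of 0.37, and none was called. All 5 red cell markers were below 0, with a median of -0.22 and 2 at an unadjusted p under 0.05 (Hbb-bt -0.32, Hbb-bs -0.30), and for male against female all 5 were above 0, with a median of 0.55. For collagen domain over PBS in the 7 libraries, neurons had a median of -0.04, astrocytes 0.06 and oligodendrocytes 0.16. Microglia had -0.04 there, endothelium 0.31, choroid plexus 0.12 and red cells -0.13. The part of these cell types in the shared shift was not tested. Whether RNA quality or library preparation had a part in the shared shift was not tested.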

How the data were processed

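The deposited table holds raw read counts per Ensembl gene, with whole-number values that the authors did not normalize. TruSeq version 2 libraries were read as pairs of 75 bases, per the labels' protocols. STAR, DESeq2 and GRCm39 are named per the submitters' processing notes, while roles, counting tool, strand setting and annotation release are not given in the sources used here. Symbols came from GENCODE M21 (42462 of 43629 IDs), and lengths from its APPRIS principal or coding transcripts.

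Testing used edgeR 4.0.16 under R 4.3.3 (filterByExpr on the 4 groups, 19145 genes kept, TMM, robust quasi-likelihood F-test, two-sided, Benjamini-Hochberg). Treatment and sex came from an additive fit, within-sex treatment and interaction from a 4-group fit. The scripts were tested on simulated counts. DESeq2 1.42.0, limma 3.58.1 (voom), other scalings and filters, a replicate block, sets without 1 or several libraries and added copies were alternatives. Same-group libraries differed beyond sampling noise (chi-square per degree of freedom 11.6 to 100.3).

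Members and lists were chosen with earlier results of these data known. Named members were those of smallest p in each comparison, the paralog pairs, the stalk, the 5S particle, Rpsa, Rps27a, the extremes by level and by departure, and those against the median direction. Some genes that this rule or a list names are not reported here.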

Additional observations from a re-analysis of the deposited data

Results flagged for a closer look

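Among 74 groups of 6 libraries tested for a single library far from the rest, 3 were flagged, where chance flags about 1 in 20. Rps4l had 11.7 CPM in collagen domain female 2, against 4.62 to 6.78 CPM in the other collagen domain libraries, and 17.7 CPM in PBS male 3, against 5.39 to 8.73 CPM in the other PBS libraries. Rpl39l had 0.319 CPM in collagen domain male 1, against 0.0233 to 0.111 CPM in the other collagen domain libraries, which is 13 reads at most. No explanation was tested.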

How the results depend on the processing

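No member passed the threshold under any alternative run, and the median over members kept its direction for collagen domain against PBS in every one. Counts of all genes called moved as follows. For collagen domain against PBS it was 2 without the 5 libraries against a label, 2 without the 4 against the treatment label, and 2 with copies added (chosen after seeing the data) and without the 5. It was 1 in females and 1 in males without the 5, and 3 in males and 1 for the interaction with DESeq2. For male against female it was 8 with DESeq2, 8 without the 5, 1 and 4 in libraries with high and low hindbrain markers, and 6 without the 4 against the sex label. Leaving out 1 library gave 0 to 1 calls in males and 0 to 5 for male against female.

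Without the 5 libraries the median of the members was -0.49, and -0.57 in females, where collagen domain female 2 was the only collagen domain library left. For male against female the median was 0.51 with high hindbrain markers. Signs changed for Rpl24 (0.27 with high hindbrain markers) and for Rpl29, which was -0.42 without the 5 libraries, -0.19 without the 4 against the treatment label, -0.014 with the hindbrain covariate, -0.42 with high hindbrain markers, -0.51 with copies added and -0.80 with copies added and without the 5. In females Rpl21 was 0.35 with copies added and Rpl3l 0.12 without the 5. For male against female with low hindbrain markers Rpl22l1 was -0.14, Rps3 -0.14, Rpl10 -0.15 and Rplp1 -0.13. Without the 5, Rpl36al/Rpl36a was 0.10, Rps4l/Rps4x 0.36 and Rpl7l1/Rpl7 0.017. The causes were not tested.

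With 1 library left out, collagen domain against PBS ranged from -0.17 to 0.033 for Rpl24, -0.090 to 0.31 for Rpl29, -0.10 to 0.029 for Rpl3, -0.10 to 0.0015 for Rplp0, -0.17 to 0.061 for Rplp1, -0.16 to 0.029 for Rplp2, -0.25 to 0.024 for Rps15, -0.21 to 0.042 for Rps27, -0.53 to 0.029 for Rps4l and -0.10 to 0.012 for Rpsa. In females the range was -0.42 to 0.19 for Rpl21, -0.59 to 0.23 for Rps27l, -0.31 to 0.12 for Rps26 and -0.33 to 0.077 for Rpl22l1. The log2 ratio ranged from -0.17 to -0.092 for Rpl22l1/Rpl22, -0.060 to 0.023 for Rpl36al/Rpl36a and -0.36 to 0.075 for Rps4l/Rps4x.

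Replicate numbers were not taken to pair the libraries. Deviations of same-numbered collagen domain and PBS libraries of one sex correlated from -0.384 to 0.439. Collagen domain males and females of one number correlated in all 3 pairs (0.301 to 0.572), PBS males and females in none (-0.122 to -0.0165). Of 12 libraries, 6 correlated best with one of their own number. With a replicate block 0 genes were called in any comparison and the median of the members stayed at -0.16. Rpl22l1/Rpl22 had an exact permutation p of 0.03125 (adjusted 0.156) with the block. That is the smallest two-sided p that the 64 arrangements allow, so this pair alone could not pass the correction there. Rpl3l, Rpl24 and Rpl39l rest on too few reads for a firm value.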
